A study of Mus musculus with 4 samples.

Results

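The genes described here are 35 regulators of the cell cycle and of DNA replication. They cover cyclins and their kinases, the replicative helicase, enzymes of nucleotide supply, and factors of mitosis. The choice was by symbol, and was made with earlier results of these data known. The genes are 35 of the 22558 gene symbols in the data, which are RNA-seq values from whole mouse retina after toxin-mediated cell killing. All 35 have an estimate in 3 of the 4 libraries, and 12 have one in the library of the day 1 toxin group, which holds estimates for 5789 symbols.

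Each of the 4 groups is 1 library of retinas from mice of about 8 weeks on a background labelled C57BL/6 and 129 mixed. Every mouse carried 1 copy of R26R-DTA, an allele that can express diphtheria toxin fragment A (DTA) once Cre recombinase has acted on it. The DTA groups also carried Msi1-CreERT2, which places a ligand-dependent Cre under control of the Musashi 1 gene, and their labels read Msi1-CreERT2/+; R26R-DTA/+. The control groups were +/+; R26R-DTA/+ and so lacked Cre. Both genotypes were sampled at day 1 and at day 5 post-injury. The sources used here do not give the number or sex of mice in a library, nor the agent that activated Cre. Msi1 controls the Cre, and so the cells in which the toxin allele can be activated, which are not 1 named cell type. Whole retina mixes all retinal cells.

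In a dividing cell, D cyclins with Cdk4 and then E cyclins with Cdk2 release E2F factors, which drive genes for origin licensing and DNA synthesis. The MCM helicase is loaded on origins by Cdc6 and Cdt1, and Cdk1 with B cyclins later starts mitosis, which ends when the anaphase-promoting complex with Cdc20 degrades its targets. The adult mouse retina is largely postmitotic, and its Müller glia seldom divide. Microglia, macrophages and vascular cells are the other retinal populations known to divide after injury.

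Levels are FPKM, fragments counted per length of transcript and scaled to the size of the library. Levels follow a fixed sequence throughout: first the control of day 1, next DTA of day 1 where measured, then the control of day 5 and last DTA of day 5. Differences are of log2(FPKM + 1), which compresses the change of genes below 1 FPKM, and folds are plain ratios of FPKM. There are no replicates, so no difference has a test across animals. The 95% intervals given with folds are exact Clopper-Pearson intervals on estimated fragment numbers. They cover counting error between 2 libraries only. The lowest FPKM steps put the depth between 29300000 fragments in day 5 DTA and 98000000 in day 1 DTA. The tissue label matched its markers: the rod gene Gnat1 stood at 4490, 6678 and 739 FPKM in the libraries that hold it. All 5 rod markers measured were lower in DTA at day 5, but unevenly, with Sag at 1559 and 1444 FPKM. A gene was called by size when its difference was at least 1, its FPKM at least 5 in 1 of the 2 libraries, and its difference larger than between the 2 controls.

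At day 5, 33 of the 35 genes stood above the day 5 control, against 72.4% of the genes above 0 in either library. In 32 the day 5 DTA library was above both controls, the exceptions being Ccnd2, Aurka and Tyms. The share was 51.1% over all 22527 genes measured, which include those at 0 and so lower it. In 22 the FPKM was at least 2 times that of the day 5 control, counting 2 listed at 0 there (20.7% of genes above 0 in either library). Mitotic genes that were close to 0 in every other library made up most of the largest ratios, and the MCM helicase genes stood 1.70 to 4.10-fold above control. The median difference was 0.58 over the 35 genes, 0.06 over all 22541 genes measured and 0.26 over the 9895 genes that reached 5 FPKM. Between the controls the median of the 35 was -0.02. In whole retina, a change in the number of cells of a type and a change in RNA per cell cannot be told apart.

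Only Ccnd3 was called by size (1 of 35, with 9 of the 35 reaching the floor of 5 FPKM), where 6.74% of genes at the floor were called higher and 1.77% lower. With small RNA genes left out, 6% were called higher and 1.38% lower. The Ccnd3 call ended when libraries were scaled by their median ratio, since the typical gene at 5 FPKM or more in both libraries was itself 1.19-fold higher in day 5 DTA (0.24 on the log2 scale). It also ended against the day 1 control and against the mean of both controls. After median ratio scaling 32 of the 35 stayed above control, without Rrm1, Tyms and Aurka. The median difference was then 0.42 over the 35 genes and 0.04 over the genes that reached 5 FPKM. With a floor of 1 FPKM or none, Birc5, Ccnb2, Mcm6 and Ube2c joined Ccnd3 and none was called lower. The background was then 6.91% higher and 1.44% lower with the floor of 1 FPKM. It was 4.12% and 0.856% with no floor, where genes at 0 are included. With a pseudocount of 0.1 and a floor of 0.5 FPKM, a setting added after the values were seen, 16 genes were called higher and none lower. At any floor, a gene that reaches it only in day 5 DTA cannot be called lower. Mki67, at 0 and 0.647 FPKM in the day 5 libraries, is such a gene here. Of the 35, 30 reached the floor of 0.5 FPKM. Of the 14469 genes at that floor, 11.8% were called higher and 1.98% lower.

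**Figure D1:**
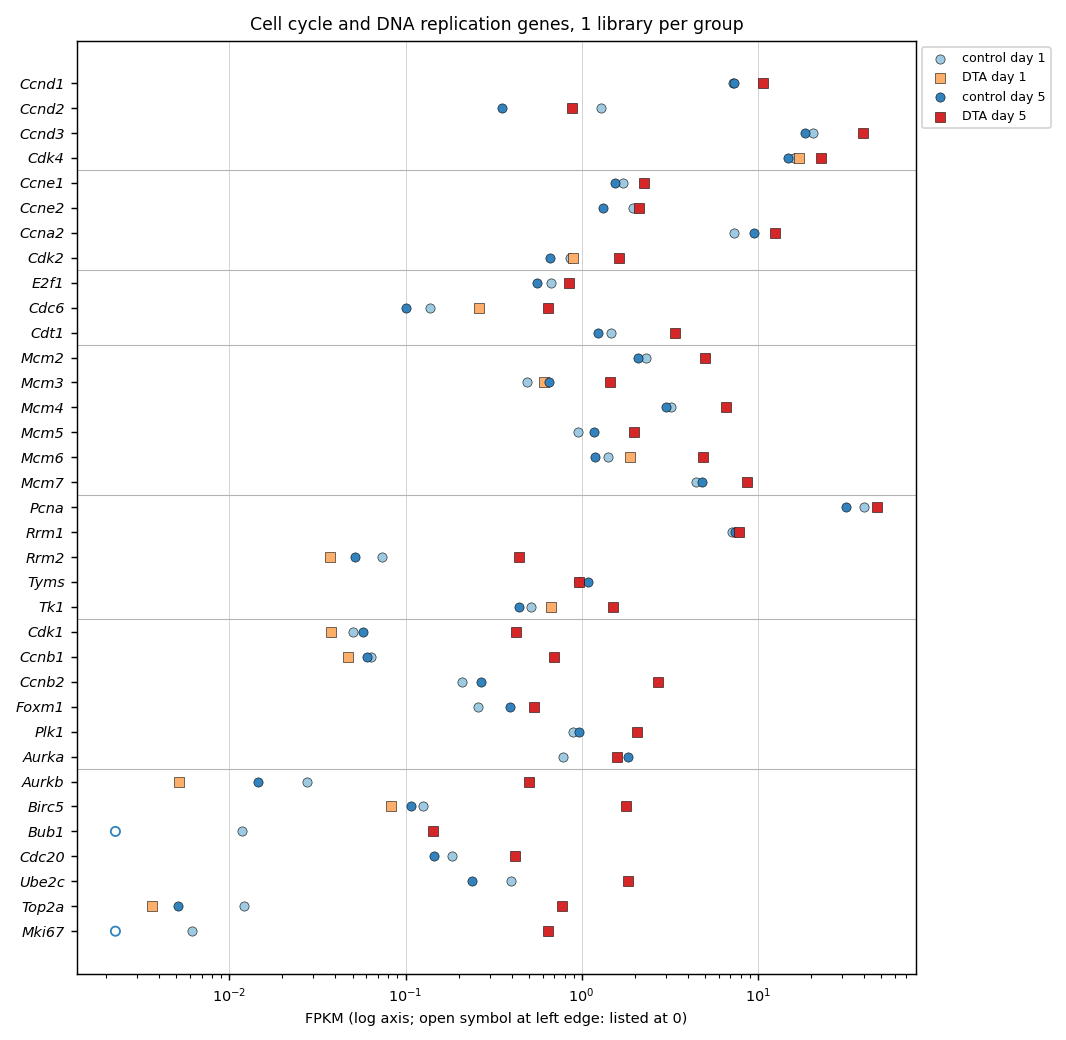
FPKM of the 35 genes in each library on a log axis, grouped by role, with 1 point per library. Open symbols at the left edge are genes listed at 0. The day 5 DTA points lie to the right of both controls in 32 of the 35 genes, with the widest gaps among the mitotic genes at the bottom.

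The D cyclins link growth signals to the cycle. Ccnd3 (chromosome 17, 47642000 to 47736637, mm9) stood at 20.7, 18.5 and 39.8 FPKM, with DTA of day 5 clear of both controls. The day 5 ratio was 2.15 (2.01 to 2.29), a difference of 1.06, and the controls differed by -0.15. Exons of Ccnd3 share 353 bases with Bysl on the opposite strand, which went from 6.20 to 11.0 FPKM between the day 5 libraries. The sources used here do not say whether the authors' counting used strand, so reads from such pairs cannot be told apart.

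Ccnd1, the D cyclin of retinal progenitors in development, stood at 7.20, 7.32 and 10.8 FPKM, 1.47-fold (1.35 to 1.60). Its exons share 818 bases with Oraov1, at 7.61 and 7.69 FPKM at day 5. Ccnd2 stood at 1.30, 0.353 and 0.878 FPKM. Its day 5 DTA value lay between the controls, which differed 3.67-fold from each other. Cdk4, the kinase partner of the D cyclins, stood at 16.1, 17.1, 14.9 and 22.9 FPKM. Its day 5 ratio was 1.54 (1.42 to 1.67), and its exons share 604 bases with Tspan31 on the opposite strand, at 39.7, 33.8, 39.9 and 37.4 FPKM.

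In the group of E cyclins, cyclin A2 and Cdk2, 3 of the 4 genes had ratios under 2 at day 5. Ccne1 and Ccne2, the E cyclins that activate Cdk2, differed 1.46-fold (1.13 to 1.89) and 1.58-fold (1.27 to 1.98) at day 5. Ccne1 stood at 1.73, 1.54 and 2.25 FPKM. Ccne2 stood at 1.95, 1.33 and 2.11 FPKM, so its day 5 DTA value was close to the earlier control. Exons of Ccne2 share 609 bases with Ints8 on the opposite strand, at 9.78, 8.93 and 16.3 FPKM, well above Ccne2 itself. Cdk2 itself stood at 0.863, 0.895, 0.664 and 1.62 FPKM. The day 5 DTA value was the highest of the 4, 2.44-fold (1.77 to 3.40) above its control.

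Ccna2, cyclin A2 of S phase and mitotic entry, stood at 7.31, 9.51 and 12.5 FPKM. The step between the controls (0.34) was about as large as that at day 5 (0.36). Its levels were far above those of the B cyclins in every library that holds both, but its exons share 512 bases with Exosc9 on the opposite strand, at 12.3, 9.62 and 15.6 FPKM, and the part of those reads in its level was not tested.

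Origin licensing genes stood higher at day 5. Cdc6, which loads the MCM helicase, stood at 0.138, 0.261, 0.1002 and 0.642 FPKM, or about 49, 120, 18 and 90 fragments. Both DTA libraries lay above both controls, by 1.89-fold (1.35 to 2.69) at day 1 and 6.40-fold (3.83 to 11.3) at day 5. Cdt1, its partner in loading, stood at 1.47, 1.24 and 3.39 FPKM, 2.72-fold (2.14 to 3.48). E2f1, the transcription factor upstream of these genes, was 1.52-fold (1.05 to 2.19) higher, at 0.673, 0.561 and 0.850 FPKM.

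All 6 subunits of the MCM helicase, the motor that unwinds DNA at the fork, lay above both controls at day 5. Mcm6 (chromosome 1, 130228168 to 130256233) had the largest ratio of the 6. It stood at 1.41, 1.87, 1.20 and 4.90 FPKM. That is 4.10-fold (3.48 to 4.85) at day 5 and 1.33-fold (1.18 to 1.49) at day 1, with both DTA libraries above both controls. It missed a call by size only through the floor, with a difference of 1.43.

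Mcm2 stood at 2.33, 2.09 and 5.04 FPKM, 2.41-fold (2.07 to 2.81). Mcm4 stood at 3.23, 3.01 and 6.58 FPKM, 2.18-fold (1.93 to 2.47). The controls differed by -0.10 for Mcm2 and -0.08 for Mcm4 on the log2 scale. Mcm3 stood at 0.490, 0.614, 0.656 and 1.45 FPKM, 2.21-fold (1.64 to 2.99) at day 5. Mcm7 stood at 4.44, 4.85 and 8.70 FPKM, 1.79-fold (1.60 to 2.01). Mcm5 had the smallest ratio, 1.70 (1.36 to 2.11), at 0.9503, 1.17 and 1.99 FPKM. Summed over the 6 genes the levels were 12.85, 12.98 and 28.7 FPKM. Mcm7 exons share 321 bases with Ap4m1 on the opposite strand, at 4.79 and 6.84 FPKM at day 5. They also share 64 bases with Cops6 on that strand, at 42.3, 37.6 and 46.3 FPKM, well above Mcm7 itself.

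Genes of nucleotide supply were uneven. Pcna, the sliding clamp of DNA polymerase, had the highest level of the 35 in all 3 libraries that hold it, at 40.4, 31.7 and 47.9 FPKM. Its ratio was 1.51 (1.42 to 1.61) to the day 5 control. Ribonucleotide reductase has a large subunit, Rrm1, and a small one, Rrm2, that is made mainly in S phase. Rrm1 stood at 7.15, 7.48 and 7.88 FPKM, 1.05-fold (0.964 to 1.15). Rrm2 stood at 0.0738, 0.0370, 0.0516 and 0.444 FPKM, about 12, 8, 4.2 and 29 fragments. The day 5 ratio of Rrm2 was 8.59 with a wide interval (3.02 to 33.6).

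Tk1, the thymidine kinase of dividing cells, stood at 0.519, 0.666, 0.441 and 1.51 FPKM. It was 3.42-fold (2.09 to 5.77) above control at day 5, and it shares 83 exon bases with Afmid, which went from 0.945 to 3.23 FPKM. Tyms, thymidylate synthase, stood at 0.966, 1.08 and 0.967 FPKM, a ratio of 0.892 (0.692 to 1.15).

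Mitotic entry genes held both large and small ratios. Ccnb2 (chromosome 9, 70255496 to 70269361), a B cyclin, stood at 0.209, 0.267 and 2.71 FPKM, about 24, 15 and 120 fragments. It was 10.2-fold (5.93 to 18.7) above the day 5 control and had the largest difference of all 35 genes, 1.55. Ccnb1, the other B cyclin, stood at 0.0633, 0.0474, 0.0604 and 0.697 FPKM. Cdk1, the kinase they activate, stood at 0.0504, 0.0377, 0.0576 and 0.424 FPKM. For Ccnb1 and Cdk1 the day 1 DTA value was the lowest of the 4 and the day 5 DTA value the highest, by 11.5-fold (4.95 to 32.9) and 7.37-fold (3.07 to 21.4) over control.

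Plk1, the kinase that drives spindle assembly, was 2.13-fold (1.60 to 2.86) above control at day 5, at 0.888, 0.969 and 2.07 FPKM. Foxm1, the transcription factor of many mitotic genes, stood at 0.259, 0.392 and 0.539 FPKM, with a ratio of 1.37 (0.964 to 1.96) below the 1.51 between the controls. Its exons share 144 bases with 4933413G19Rik on the same strand, at 0.0726, 0.143 and 0.435 FPKM. Aurka, the centrosomal Aurora kinase, stood at 0.786, 1.83 and 1.58 FPKM. Its controls differed 2.33-fold, and day 5 DTA lay between them.

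As a group, the 7 genes of chromosome segregation and mitotic exit had the lowest summed control levels and the highest median ratio, 16.6 over the 5 above 0 in the day 5 control. Mki67 (chromosome 7, 142881471 to 142908062), which encodes the proliferation antigen Ki-67, stood at 0.00616, 0 and 0.647 FPKM, with the 0 as listed in the later control. These are about 4.6, 0 and 190 fragments. Top2a (chromosome 11, 98854261 to 98885503), the topoisomerase that untangles chromosomes, stood at 0.0121, 0.00363, 0.00509 and 0.775 FPKM. Its estimated fragments were 4.7, 1.9, 0.98 and 120, so the ratio of 152 at day 5 has an interval from 26.8 to 6062. In both genes the 190 and 120 fragments of day 5 DTA stand against fewer than 5 in each other library that holds the gene.

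Birc5 (chromosome 11, 117710551 to 117717057) encodes survivin, a subunit of the chromosomal passenger complex. It stood at 0.126, 0.0828, 0.108 and 1.79 FPKM. Day 5 DTA was 16.6-fold (9.46 to 31.8) above its control, and the other 3 libraries lay within 0.05 FPKM of each other. Aurkb, the kinase of the same complex, stood at 0.0277, 0.00519, 0.0145 and 0.4999 FPKM, about 4, 0.99, 1 and 29 fragments. Its day 5 ratio was 34.4 (5.70 to 1404).

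Ube2c, the ubiquitin-conjugating enzyme of the anaphase-promoting complex, stood at 0.396, 0.238 and 1.84 FPKM, 7.71-fold (4.73 to 13.3). Its exons share 592 bases with Tnnc2 on the opposite strand, which went from 0.104 to 1.02 FPKM. Cdc20, the activator of that complex, stood at 0.185, 0.145 and 0.416 FPKM, 2.86-fold (1.30 to 6.78). Exons of Cdc20 share 53 bases with Elovl1 on the opposite strand, at 2.75, 3.16 and 7.10 FPKM, well above Cdc20 itself. Bub1, a kinase of the spindle checkpoint, stood at 0.0118, 0 (as listed) and 0.144 FPKM, about 3, 0 and 14 fragments. All 7 genes of this group were at least 2 times the day 5 control or listed at 0 there. Summed, they stood at 0.765, 0.511 and 6.11 FPKM.

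A stricter count was added after the values were seen, of genes at 0.1 FPKM or more in day 5 DTA and at 5 times or more of both controls. It took 9 of the 35 genes: Mki67, Top2a, Birc5, Aurkb, Bub1, Ccnb1, Ccnb2, Cdk1 and Rrm2. Of all 16330 genes at 0.1 FPKM or more, 4.54% met it. In levels these genes stayed low, since the highest of the 9, Ccnb2 at 2.71 FPKM, was far below Ccnd3, Cdk4 and Pcna.

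**Figure D2:**
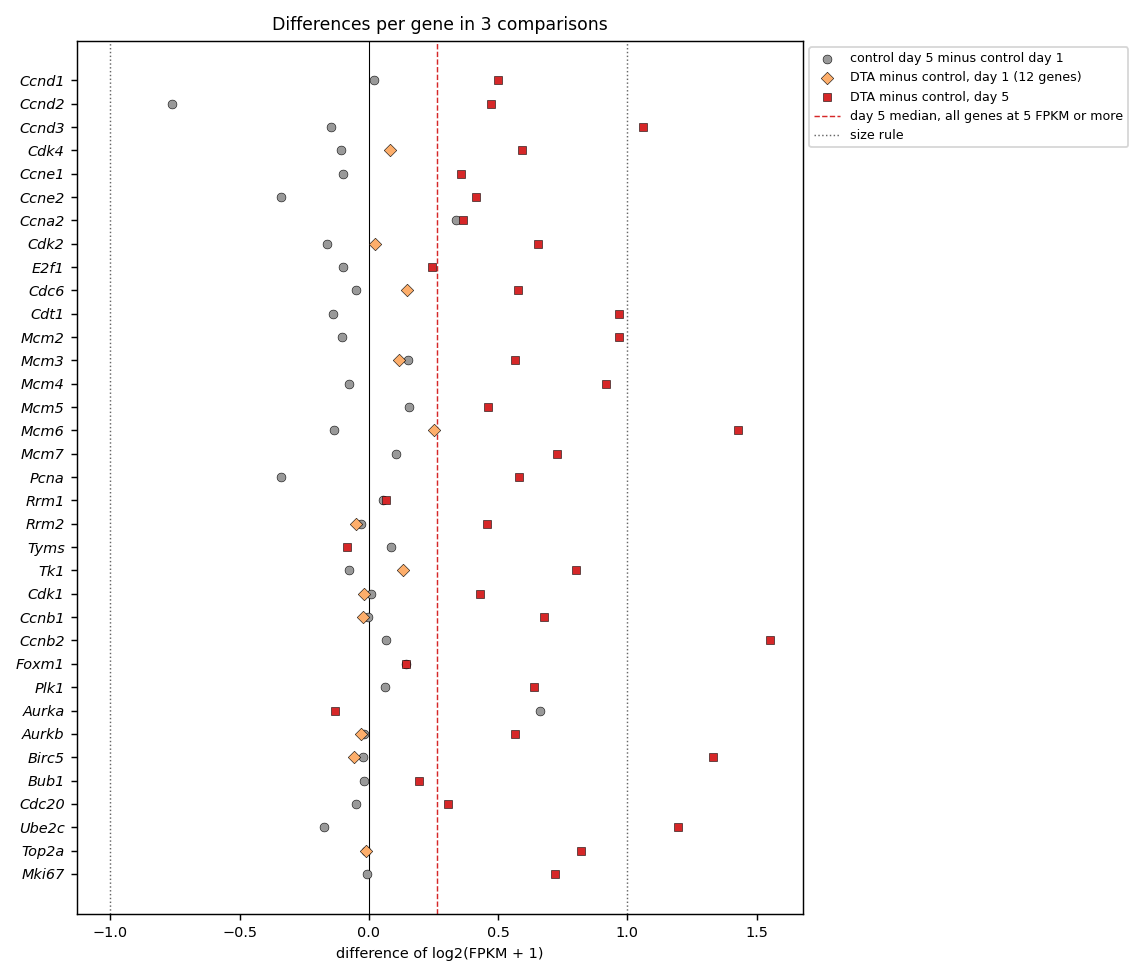
Difference of log2(FPKM + 1) for each gene at day 5 (red), at day 1 (orange, 12 genes) and between the controls (grey). Dotted lines mark the size rule at 1 and -1, and the dashed line the day 5 median of 0.26 over genes at 5 FPKM or more. Most red points lie right of the dashed line, while the grey and orange points lie mostly around 0.

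RefSeq promoters (GRCm38.p6, 250 bases before to 50 after the start) were found for 28 of the 35 genes. The 3 motifs searched are known from cell cycle promoters, and both strands were read: an E2F site (TTTCGCGC, TTTGGCGC, TTTCCCGC or TTTGCCGC), the cell cycle homology region or CHR, bound by the MuvB complex (TTTGAA or TTCGAA), and the CCAAT box bound by NF-Y (CCAAT). The lines below print the 150 bases before the start site of 6 mitotic genes with large ratios and of Mcm6. They include Birc5 and Ccnb1, picked to show large ratios with few or no matches, and are printed 5′ to 3′ on the strand of its gene, with matches in capitals.
Mki67, chr7:135716380-135716529, minus strand: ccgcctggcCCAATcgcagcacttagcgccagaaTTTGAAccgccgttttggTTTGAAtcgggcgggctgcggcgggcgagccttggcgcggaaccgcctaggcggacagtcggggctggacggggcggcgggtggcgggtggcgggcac
Top2a, chr11:99024190-99024339, minus strand: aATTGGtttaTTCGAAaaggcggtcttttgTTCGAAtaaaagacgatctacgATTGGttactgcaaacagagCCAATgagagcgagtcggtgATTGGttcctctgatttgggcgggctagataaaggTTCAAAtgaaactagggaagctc
Birc5, chr11:117849087-117849236, plus strand: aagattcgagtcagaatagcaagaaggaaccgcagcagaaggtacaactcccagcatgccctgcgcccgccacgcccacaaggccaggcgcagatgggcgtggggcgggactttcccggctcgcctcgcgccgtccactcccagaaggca
Ccnb1, chr13:100786487-100786636, minus strand: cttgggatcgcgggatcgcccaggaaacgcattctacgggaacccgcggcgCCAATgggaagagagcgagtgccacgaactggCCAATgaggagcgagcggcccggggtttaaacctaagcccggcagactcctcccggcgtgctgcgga
Cdk1, chr10:69352913-69353062, minus strand: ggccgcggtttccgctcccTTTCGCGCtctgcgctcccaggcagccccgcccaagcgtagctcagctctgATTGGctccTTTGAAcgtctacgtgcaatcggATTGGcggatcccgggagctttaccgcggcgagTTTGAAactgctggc
Ube2c, chr2:164769779-164769928, plus strand: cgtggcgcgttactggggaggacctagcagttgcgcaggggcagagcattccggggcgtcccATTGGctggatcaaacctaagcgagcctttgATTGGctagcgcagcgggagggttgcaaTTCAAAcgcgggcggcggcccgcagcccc
Mcm6, chr1:128359706-128359855, minus strand: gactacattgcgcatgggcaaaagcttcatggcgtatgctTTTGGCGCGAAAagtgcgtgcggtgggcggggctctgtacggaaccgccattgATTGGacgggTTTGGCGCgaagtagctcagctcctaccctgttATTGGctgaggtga
In the whole windows the Mki67 promoter holds 2 CHR and 3 CCAAT matches, and that of Cdk1 2 CHR, 3 CCAAT and 1 E2F match. The 3 E2F matches of Mcm6 include 2 that overlap, and no CHR match was found there. Ccnb1 holds 2 CCAAT matches and no CHR or E2F match. Birc5 is 1 of 6 genes with no match to any of the 3, beside Ccne1, Cdk4, E2f1, Tk1, Tyms. Aurka, which did not stand above its control, holds 1 CHR and 2 CCAAT matches. Over the 28 genes, 20 hold a CCAAT match (71.4%), 11 a CHR match (39.3%) and 8 an E2F match (28.6%). Of the 27025 symbols with a promoter in the table, 41.1%, 21.7% and 2.6% do. All 11 genes with a CHR match also hold a CCAAT match, where 2609 of the 5854 symbols with a CHR match do. Both motifs are thus found in 39.3% of the 28 genes and in 9.65% of all symbols. Matches are letters only and do not show binding.

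At day 1 the question was whether these genes had already moved. None of the 12 genes in the day 1 DTA library was called by size, where 2.06% of genes at the floor were called higher and 0.61% lower, and only Cdk4 of the 12 reached 5 FPKM. The median difference of the 12 was 0.0060, against 0.0039 over all 5785 genes measured, and the same 12 had a median of 0.62 at day 5. Cdk4, Cdk2, Cdc6, Mcm6 and Tk1, all genes of G1 and S phase, stood above both controls (5 of 12, 41.6% of all genes, those at 0 included). Mcm3 stood between the controls at 0.614 FPKM against 0.490 and 0.656. Top2a, Birc5, Aurkb, Cdk1, Ccnb1 and Rrm2 stood below both controls (6 of 12, 18.7% of all genes, those at 0 included). Their ratio intervals to the day 1 control all include 1. The intervals of Cdc6, Mcm6 and Cdk4 (1.01 to 1.12) lay above 1.

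Between the DTA libraries all 12 genes were higher at day 5 than at day 1, as were 58.4% of all genes measured in both, those at 0 included. None was called by size (2.46% of genes at the floor were called higher and 3.04% lower), with a median difference of 0.58 against 0.04 over all genes. Birc5 and Mcm6 were called with a floor of 1 FPKM (background 2.8% higher, 2.61% lower) or none (1.78% and 1.66%, genes at 0 included). With a pseudocount of 0.1 and a floor of 0.5 FPKM, 7 of the 12 were called (6.16% and 3.21%). Birc5 was 21.6-fold (14.4 to 33.7) higher at day 5, Ccnb1 14.7-fold (7.74 to 30.3) and Mcm6 2.62-fold (2.36 to 2.91). For the other members no day 1 DTA value was analysed here.

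Between the controls none of the 35 genes was called in either direction, where 0.858% of genes at the floor were called higher in the day 5 control and 1.72% lower. Of the 35, 12 were higher in the day 5 control and 23 lower. The largest differences were those of Ccnd2 (-0.76) and Aurka (0.66), which were called lower and higher with a pseudocount of 0.1 and a floor of 0.5 FPKM (background 2.39% and 1.07%). In 31 of the 35 genes the day 5 difference between DTA and control was larger in size than that between the controls, as it was in 68.2% of the genes above 0 in any of the 3 libraries.

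The same comparison was made over 145 other genes of the pathway in 8 lists, of which 143 were measured at day 5. Of these, 131 stood above the day 5 control, and of the 61 at the floor 6 were called higher and 1 lower (background 6.74% and 1.77% of genes at the floor), and the median difference was 0.36. Cdkn1a, which encodes the CDK inhibitor p21, had the largest difference, 3.48, and stood at 2.71, 3.65 and 50.8 FPKM, 13.9-fold higher at day 5. The other 7 CDK inhibitors had no call, with Cdkn1b (p27) at 30.8 and 35.3 FPKM at day 5. Among 13 checkpoint and DNA damage genes, 3 were called higher. Ccng1, a p53 target, stood at 22.2 and 71.2 FPKM in the day 5 libraries, Trp53, which encodes p53, at 5.14 and 13.2, and Mdm2, its ubiquitin ligase, at 16.5 and 34.5. At day 1 the values were 5.67 and 9.40 FPKM for Trp53 and 26.4 and 26.6 FPKM for Ccng1. With median ratio scaling Trp53, Mdm2 and E2f6 lost their calls.

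Of 33 measured genes of the spindle, kinetochore and cytokinesis 29 stood above control, with a median of 0.38, and 22 were at least 2 times the control. Smc4, a condensin subunit, was called higher at 6.35 and 16.3 FPKM, a call that ended against the day 1 control (8.19). Of these genes 7 met the 5-times rule (Cep55, Hmmr, Kif2c, Kif4, Ndc80, Nuf2 and Sgol1), among them Kif4, a chromosome-bound kinesin, at 0.472, 0.458 and 4.03 FPKM. Spc25, which encodes a kinetochore protein, went the other way. It stood at 105, 65.8 and 6.80 FPKM, 9.67-fold lower at day 5, while its complex partners Ndc80, Nuf2 and Spc24 stood under 0.2 FPKM in the controls.

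All 26 genes of the replication fork and DNA polymerases stood above control at day 5, none called, with a median of 0.38 and Pola2, of the priming polymerase, at 2.21 and 4.84 FPKM. Of 17 measured origin genes 15 did (median 0.55, none called), and Gins2, of the active helicase, stood at 0.798 and 2.90 FPKM, with 2758 exon bases shared with Gse1 on the opposite strand. In the list of RB, E2F, DREAM and MYB factors 17 of 19 did (median 0.27). E2f6, a repressive E2F, was called higher at 7.37 and 17.7 FPKM, and Myc stood at 0.174 and 3.56 FPKM under the floor. Of 13 other cyclins, kinases and phosphatases 12 did (median 0.26, none called), with the kinase subunit Cks1b at 0.897 and 2.77 FPKM. Of 14 ubiquitin ligase genes 13 did (median 0.35, none called), with the largest difference in Fbxo5, an inhibitor of the anaphase-promoting complex, at 3.08 and 5.68 FPKM, where the day 1 control stood at 6.06.

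**Figure D3:**
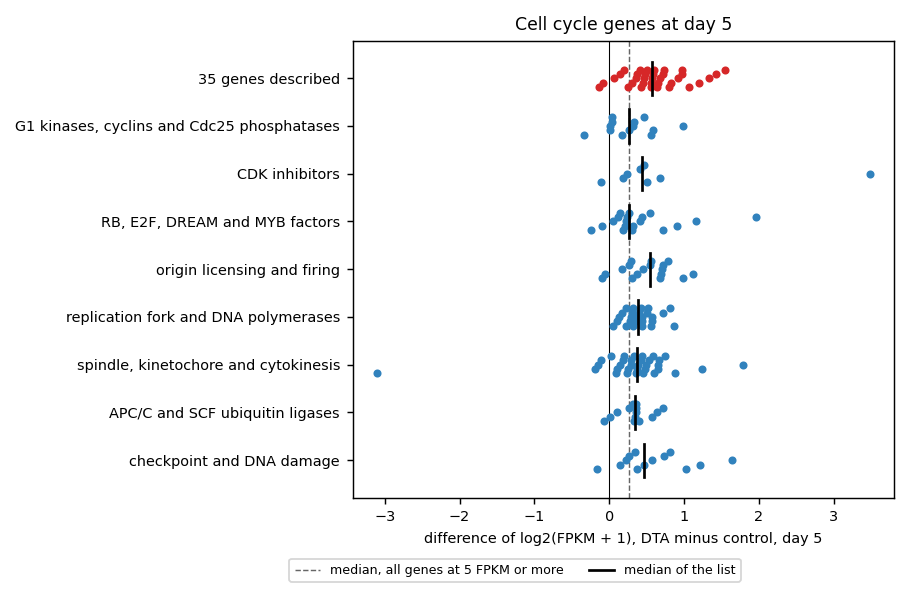
Difference of log2(FPKM + 1) between DTA and control at day 5 for the 35 genes (red) and 8 lists of other cell cycle genes (blue), 1 point per gene, with the list median as a black bar. The dashed line is the median of 0.26 over all genes at 5 FPKM or more. Cdkn1a at 3.48 and Spc25 at -3.10 lie far from the other points.

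Markers of other cells also differed in the same libraries. All 15 microglia and macrophage markers stood above control at day 5, 11 of them called higher, and their summed level was 30.5, 29.6 and 193 FPKM. C1qb, a complement subunit made by microglia, had the highest level of the 15 in day 5 DTA, at 33.7 FPKM against 4.46 in the day 5 control. None of the 15 was listed at 0. All 6 genes listed as reactive glia markers were called higher, with sums of 85.0, 74.4 and 508 FPKM. Among them was Lcn2, which reactive glia secrete, at 2.23, 3.10 and 116 FPKM. The list also holds Edn2, at 1.24, 4.88 and 79.4 FPKM, and which cells made it was not tested. The part of either population in the levels of the cell cycle genes was not tested.

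Markers of other leukocytes summed to 1.58, 1.90 and 4.31 FPKM, with the T cell genes Cd3e and Cd3g at 0 in all 3 libraries. Of these 14 markers 7 stood above the day 5 control, 2 below and 5 level with it, with none called. In the day 5 libraries Cd79a stood at 0.0227 and 0.836 FPKM, Ptprc at 0.101 and 0.571, and S100a8 at 0 and 0.330. These 3 met the 5-times rule. Endothelium and pericyte markers summed to 49.2, 47.7 and 50.8 FPKM, a sum led by Kdr at 38.0, 27.7 and 28.3 FPKM. Between the controls 5 of these 6 markers were higher at day 5 (median difference 0.45), and Rgs5 was called higher, at 3.06 and 8.04 FPKM. The 11 retinal progenitor factors summed to 223, 197 and 180 FPKM. That sum was led by Pax6 at 79.8, 73.5 and 75.3 FPKM and Rax at 66.6, 61.0 and 48.0 FPKM. Which cells expressed the 11 was not tested. Of the 11, 4 stood above the day 5 control and 7 below. Of the 4, Nes stood at 1.01, 1.02 and 3.53 FPKM and Fgf15 at 0.0986, 0.0318 and 0.429 FPKM. These were the 2 at 2 times the day 5 control or more. Müller glia markers summed to 1990, 1597 and 705 FPKM. Most of that gap was Glul, at 888 and 159 FPKM at day 5, and 2 of the 7 were called lower, while Apoe stood at 316 and 303 FPKM and Sox9 was the 1 above control. Cone markers summed to 392, 448 and 128 FPKM. Lens markers, from tissue beside the retina, summed to 1683, 217 and 12.3 FPKM and so differed between the controls as well. Pigment epithelium markers summed to 153, 38.7 and 16.6 FPKM, and red blood cell markers to 67.2, 27.0 and 57.7 FPKM. Their part in the results was not tested.

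**Figure D4:**
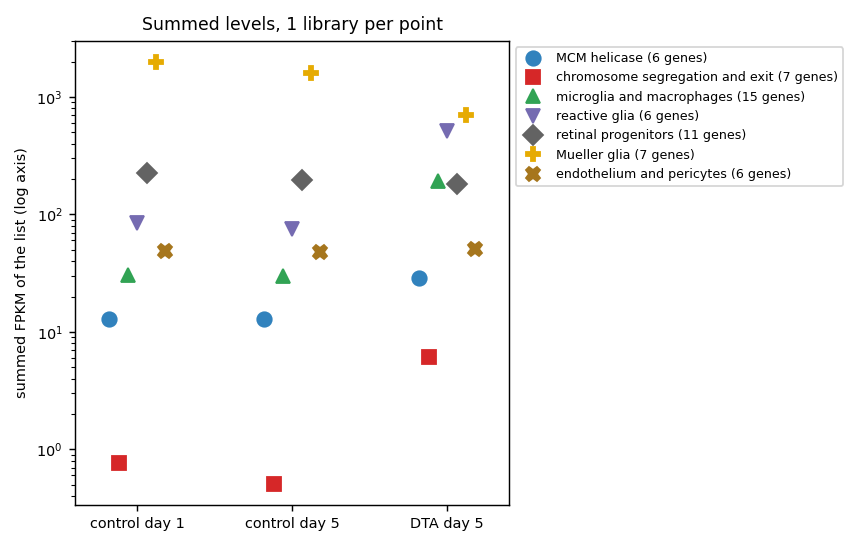
Summed FPKM (log axis) of the MCM genes, the chromosome segregation genes and 5 marker lists in the 3 full libraries, 1 library per point. The segregation genes, the MCM genes, and the microglia and reactive glia lists are highest in day 5 DTA. The progenitor and Müller glia lists are lowest there, and the endothelial sums are 49.2, 47.7 and 50.8.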

How the data were processed

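Per the labels' protocols, whole retinas were extracted with Sepazol, and an mRNA-seq kit from Illumina served for the libraries. The FPKM values were computed by the authors, and the file headers list them with confidence bounds and a status. Cufflinks 2.1.1, CASAVA 1.8.2, bcl2fastq 1.8.4 and the mm9 build are named, without roles, in the submitters' processing notes. Aligner, annotation and use of strand: not given in the sources used here.

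FAIL and HIDATA lines were read as missing, which touched none of the 35 genes, and loci of 1 symbol were summed. Depth came from the commonest low value of FPKM times transcript length, taken as 1 fragment, over genes with 1 annotated transcript above 1500 bases. Estimated fragments use the longest annotated transcript and are approximate. Differences are of log2(FPKM + 1). With 1 library per group no test was run, and genes were called by a size of 1, a floor of 5 FPKM and the difference between the controls. The size rule was checked on simulated libraries with counting noise only and with changes planted only in genes above the floor. That check does not cover changes in genes below the floor or differences between animals. Python 3.11.15, numpy 2.4.6, pandas 2.3.3 and scipy 1.17.1 were used. Named were all 35 genes, from each pathway list the called genes or otherwise up to 3 with the largest difference, and up to 2 markers per cell type. Some of these are given only as counts. Cdkn1b, Myc, Spc24, Sox9, Rgs5, Edn2, Cd79a, Ptprc, S100a8, Nes, Fgf15 and the spindle genes at 5 times both controls were named after their values were seen. The members, lists and rules were chosen with earlier results of these data known. Alternatives covered the pseudocount, the floor, scaling, the control used, the status of lines, the size and the authors' intervals. Loci are mm9 as in the files, with starts counted from 1.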

Additional observations from a re-analysis of the deposited data

Results flagged for a closer look

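In 6 of the 12 genes measured at day 1, the DTA library stood below control at day 1 and above control at day 5. All 12 stood above control at day 5. Of all genes measured, those at 0 included, 37.1% stood below control at day 1 and 60.8% above control at day 5. The share of all genes with both directions was not counted. The difference between the days was not tested, since each group is 1 library, and all 6 day 1 differences were small, at 27 estimated fragments or fewer in day 1 DTA. The day 5 difference minus the day 1 difference of log2(FPKM + 1) was 1.39 for Birc5 (-0.06 at day 1), 0.83 for Top2a (-0.01), 0.70 for Ccnb1 (-0.02), 0.60 for Aurkb (-0.03), 0.51 for Rrm2 (-0.05) and 0.45 for Cdk1 (-0.02).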

How the results depend on the processing

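No paired analysis was possible because each group has 1 library, and for the same reason no library could be left out within a group. In every setting tried 32 to 34 of the 35 genes stood above control at day 5, but the number called by size varied. It was 1 as reported, 0 with a pseudocount of 5, with either scaling, with the day 1 control and with the mean of both controls, 3 with a pseudocount of 0.1, and 5 with a floor of 1 FPKM, with no floor and with a size of 1.5-fold. It was 16 with the added setting of a pseudocount of 0.1 and a floor of 0.5 FPKM. No share of all genes called is given here for a pseudocount of 0.1 alone, a pseudocount of 5 or a size of 1.5-fold. The same holds for the settings of scaling and of the control used. The call of Ccnd3 ended in the settings with 0. The median day 5 difference of 0.58 became 1.10 with a pseudocount of 0.1 (also in the added setting), 0.19 with a pseudocount of 5, 0.42 with median ratio scaling and 0.45 with scaling to the sum without photoreceptor, lens, red blood cell and abundant genes. Both scalings lower all day 5 differences by construction.

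Of the other pathway genes, 6 were called higher as reported, 2 with a pseudocount of 5, 3 with median ratio scaling (Ccng1, Cdkn1a and Smc4), 13 with a size of 1.5-fold and 32 in the added setting, while Spc25 was called lower in each. The added setting called 11.8% of the genes at its floor higher and 1.98% lower. For the pseudocount of 5, median ratio scaling and the size of 1.5-fold no such share is given here. At day 1 no member was called in any setting, and the median difference went from 0.0060 to -0.034 with a pseudocount of 0.1, alone and in the added setting. Between the controls the added setting called 1 gene higher (Aurka) and 1 lower (Ccnd2). Between the DTA libraries 2 members were called higher with a floor of 1 FPKM or none and 7 in the added setting. Their median of 0.58 became 1.64 with a pseudocount of 0.1 (also in the added setting), 0.19 with a pseudocount of 5 and 0.51 with median ratio scaling. The cause was not tested where the setting does not itself fix it. Depth limits the genes with under 5 estimated fragments in a library, namely Mki67, Top2a, Aurkb, Bub1 and Rrm2.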
